A study of Mus musculus with 16 samples.

Results

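The 9 genes described here encode the LSD histone demethylases and the CoREST corepressor that LSD1 works in: Kdm1a (LSD1), Kdm1b (LSD2), Rcor1, Rcor2, Rcor3, Hdac1, Hdac2, Phf21a and Hmg20b. They were taken by symbol from the 24063 genes listed in the count tables, by no rule on a measured value but with earlier results of these data known. All 9 were listed, and 8 of them had enough counts to be tested, together with 11344 genes in all.

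The tables held RNA counts of 16 single mouse two-cell embryos, 8 in each of the groups f/wt and Δm/wt (the latter labelled mko/wt). In both groups the mothers were superovulated Kdm1a f/f females and the fathers were wild-type B6D2F1 males. The f/wt mothers lacked Cre, whereas the Δm/wt mothers, of mixed C57BL/6J and 129 background, carried Zp3-cre, in which an oocyte promoter drives Cre and the floxed first exon of Kdm1a is lost while the oocyte grows. A Δm/wt embryo thus grew without maternal KDM1A but kept 1 intact paternal Kdm1a allele. The labels do not say which embryos shared a mother, so p-values measure the spread between these embryos. Levels are given as CPM, counts per 1000000 counts of a library after TMM scaling, from which a change of 1 gene and a change in the total RNA of an embryo cannot be told apart.

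LSD1 is a flavin-dependent enzyme that removes methyl groups from histone H3 and, in vertebrates, is held to chromatin by a CoREST scaffold protein. The scaffold also carries a histone deacetylase, HDAC1 or HDAC2, so that demethylation and deacetylation are coupled on the same nucleosomes. LSD2 is a related demethylase that does not use CoREST, and in mouse oocytes it is known for its role in setting up maternal DNA methylation imprints. At the two-cell stage the embryo hands over from transcripts stored by the oocyte to transcripts of its own genome.

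Libraries held 3212510 to 14334244 gene counts and 11250 to 14444 detected genes. The libraries f/wt 2 and f/wt 3 were nearly identical, with a mean chi-square per gene of 1.89, where the 55 remaining same-group pairs gave 45.6 to 366. They were summed into 1 sample, and the comparison is one of 7 f/wt with 8 Δm/wt samples. Of 10 markers of the two-cell stage, 9 were in the count tables and 8 were detected in each group. Their summed level was 380 to 2184 CPM in f/wt, against 68.2 to 1075 CPM in Δm/wt. The mean of Tcstv1 fell from 311 to 61.0 CPM, of Tcstv3 from 504 to 34.5 CPM and of Eif1a from 184 to 23.0 CPM. Tdpoz4 and Usp17lb were also lower in the mean. Means of Zscan4c (42.3 and 83.0 CPM), Zscan4d (41.4 and 52.4 CPM) and Zfp352 (119 and 136 CPM) were higher in Δm/wt. The median was also higher for Zscan4c (23.8 and 39.1 CPM) and Zscan4d (30.4 and 35.9 CPM) but lower for Zfp352 (118 and 55.8 CPM). All 10 oocyte markers were detected, at 1792 to 3655 CPM in f/wt, against 10585 to 26412 CPM in Δm/wt. Of 10 cumulus and granulosa markers, 5 were at 0 in f/wt (Amh, Inhba, Foxl2, Fshr and Ptx3) and 6 in Δm/wt (these and Inha), and their sum was 0.130 to 10.4 CPM against 26.8 to 147 CPM. Nearly all of the Δm/wt sum was 1 gene, Cyp19a1, at 25.9 to 143 CPM, while Tnfaip6 averaged 2.39 CPM in f/wt, against 0.428 CPM in Δm/wt. Of 8 blood and myeloid markers, Hbb-b1 and Hba-a1 were at 0 in both groups and Ptprc also in f/wt, with sums of 0.992 to 12.3 CPM and 9.27 to 1946 CPM. Of 6 sperm markers, 5 were at 0 in both groups, and the sum reached 0.708 CPM in f/wt, against 9.82 in Δm/wt. The part of these differences in the results below was not tested.

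The first exon of Kdm1a is the piece that Cre removes from the maternal allele, and its start is shown because the design turns on this stretch. In the principal annotated transcript (GENCODE M21, mouse build GRCm38) the exon lies on the minus strand at chr4:136602232-136602723 and holds 492 bases, 354 of them coding. The first 300 coding bases, chr4:136602286-136602585, are given with the start codon in capitals.
Kdm1a exon 1, first coding bases: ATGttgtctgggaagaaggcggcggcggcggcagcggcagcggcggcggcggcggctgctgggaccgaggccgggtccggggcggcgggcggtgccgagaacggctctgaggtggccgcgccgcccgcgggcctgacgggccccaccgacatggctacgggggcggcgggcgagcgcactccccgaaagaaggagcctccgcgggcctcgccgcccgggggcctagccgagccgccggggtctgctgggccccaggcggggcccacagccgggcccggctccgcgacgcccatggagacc
These bases are 80.3% G or C, against 51.9% over the whole coding sequence. The remaining 2516 of the 3008 transcript bases lie in later exons, and the libraries were read mostly toward the 3′ ends of transcripts. Reads of later exons were counted with those of the first, so the Kdm1a counts are only a partial check of the deletion.

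The deacetylases Hdac1 and Hdac2 are close paralogs whose ratio differed between the groups, so the stretch in which their coding sequences are most alike is shown, 49 bases long like a sequenced read and with the mismatched bases in capitals. Both stretches cross an exon boundary, that of Hdac1 within chr4:129524314-129528968 on the minus strand and that of Hdac2 within chr10:36986383-36988086 on the plus strand.
Hdac1: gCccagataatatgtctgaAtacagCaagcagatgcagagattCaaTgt
Hdac2: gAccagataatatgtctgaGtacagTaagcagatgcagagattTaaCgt
Even this closest pair differed at 5 bases, whereas reads were kept only with fewer than 2 mismatches. The fewest mismatches between coding windows of that length were 13 for Kdm1a and Kdm1b, 8 for Rcor1 and Rcor2, 5 for Rcor1 and Rcor3, and 7 for Rcor2 and Rcor3. Copies elsewhere were a different matter for Hdac1, for which 1172 of 1990 windows (58.9%) also occurred in 3 annotated pseudogenes, foremost Gm10093. Such reads have no unique best alignment, in either group, whereas all of the 500 windows nearest the 3′ end were free of these copies.

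Of the 8 tested members, Kdm1a and Hdac1 were lower in Δm/wt than in f/wt, none was higher, and Kdm1b, Rcor1, Rcor2, Rcor3, Hdac2 and Phf21a did not pass (edgeR quasi-likelihood test, adjusted p under 0.05). The number of higher members was 0 also at an unadjusted p under 0.05, and 0 with DESeq2 and with limma-voom, which called 2892 and 2907 of all genes higher. Among all 11344 genes, 22.8% were called lower and 21.9% higher, so 2 lower genes of 8 (25.0%) is near the background. Scaling to library totals gave 1892 higher and 3116 lower genes in place of 2488 and 2583, and scaling to Hprt, Gapdh and Ppia gave 3540 and 1594. The means of these 3 genes went in different directions, at CPM of 544 for Hprt, 149 for Gapdh and 587 for Ppia in f/wt, against 271, 359 and 179 in Δm/wt. The median log2 fold change of the 8 genes was −0.76, against 0.04 over all genes. In no member did the groups separate completely. Over all genes, 9.04% had every Δm/wt sample below every f/wt sample and 7.18% had every one above, so 0 of 8 is near the background. The plot of CPM in each embryo shows how far the embryos of 1 group differed among themselves.

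**Figure D1:**
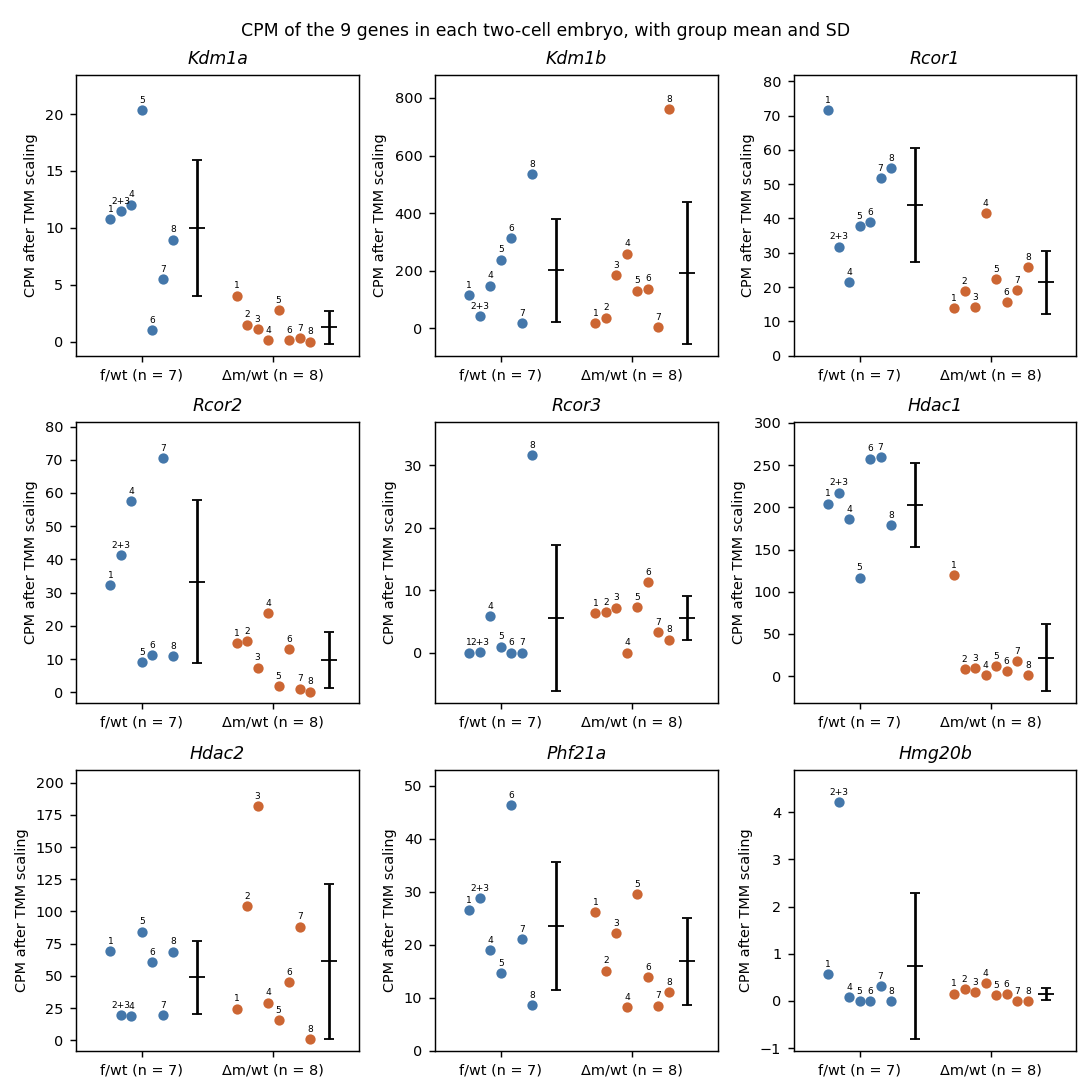
CPM after TMM scaling of the 9 genes in each embryo (points, numbered by embryo, 2+3 being the sum of 2 near-identical libraries), with the mean and SD of 7 f/wt and 8 Δm/wt samples beside them. Hdac1 is low in all Δm/wt embryos but number 1, at 120 CPM, and Kdm1b runs from 18.9 to 535 CPM in f/wt and from 4.54 to 760 CPM in Δm/wt.

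Kdm1a, the gene targeted by the deletion, was at 0.991 CPM in the lowest f/wt embryo, 10.8 in the median and 20.3 in the highest, and at 0, 0.699 and 4.03 CPM in the lowest, median and highest Δm/wt embryo. Of the f/wt samples 6 lay above every Δm/wt sample, and the exception was f/wt 6, which held 8 counts. The means were 9.998 ± 6.00 CPM (SD, n = 7) and 1.24 ± 1.46 CPM (SD, n = 8), a log2 fold change of −2.99 ± 1.01 (SE, edgeR adjusted p = 0.0211). The group totals were 700 and 70 counts. Kdm1a RNA was thus low but not lost from the Δm/wt group as a whole. Of its 8 embryos 7 held at least 1 count, but 3 of the 8 held fewer than 3, too few to settle its presence there. The 0 counts of Δm/wt 8 allow a level of up to 0.627 CPM. No other gene listed in the tables overlapped Kdm1a in position, and none of its windows of read length occurred in another annotated gene. The call was lost when libraries were scaled to Hprt, Gapdh and Ppia (log2 fold change −2.08, edgeR adjusted p = 0.129, where the median of all genes rose to 0.75). It was also lost in embryos 4 to 8 alone (−3.79, edgeR adjusted p = 0.0701). Those embryos are closer to one another in read number than embryos 1 to 3 are but are named a batch by no source. Embryos 1 to 3 were the more alike in expression. Spearman's rho of their counts was at least 0.909 in f/wt, against at most 0.897 in other f/wt pairs. In Δm/wt it was 0.890 to 0.915, against at most 0.869. Lyz2 held 0 counts in embryos 1 to 3 of both groups and at least 5 in every other embryo. The source of these differences was not tested.

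Kdm1b, the second LSD demethylase, was far more abundant than Kdm1a and did not differ between the groups beyond the spread. It was at 18.9, 148 and 535 CPM in the lowest, median and highest f/wt embryo and at 4.54, 135 and 760 CPM in Δm/wt. Each group thus held embryos with little and embryos with much Kdm1b RNA, and the highest and the lowest sample of all were both Δm/wt, numbers 8 and 7. The means were 202 ± 180 CPM (SD, n = 7) and 192 ± 246 CPM (SD, n = 8), with a log2 fold change of −0.07 ± 0.76 (SE, edgeR adjusted p = 0.945). Without Δm/wt 8 the value was −0.87 (adjusted p = 0.339). Its CV was 89.0% over f/wt samples, against 128% over Δm/wt samples, where the median of 912 tested genes of like level was 46.8% and 54.1%. The last 513 bases of Kdm1b overlap the end of Dek on the other strand (chr13:47084767-47085279), and the counting is not stated to use strand. Dek itself averaged 13.6 ± 21.9 CPM (SD, n = 7) in f/wt, against 19.5 ± 14.8 CPM (SD, n = 8) in Δm/wt. Of the 500 Kdm1b windows of read length nearest the 3′ end, 457 (91.4%) also occurred in Dek. Whether reads there were counted for Kdm1b, for Dek or for neither was not tested.

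The genes whose pattern over the 15 samples was most like that of Kdm1a, by the mean absolute difference of centred log2 CPM among 7970 genes, were Chek2 (0.63), Tango2 (0.67) and Kctd20 (0.71), where the median gene differed by 2.05. Chek2, a checkpoint kinase of the DNA damage response, averaged 58.1 CPM in f/wt, against 10.1 CPM in Δm/wt. For Kdm1b they were Smchd1 (0.80), Usp1 (0.80) and Fam179b (0.83), against a median of 1.98. Smchd1, a chromatin protein known from X inactivation, averaged 203 CPM in f/wt, against 148 CPM in Δm/wt. These are descriptions of profiles that share library and depth.

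Among the deacetylases, Hdac1 was abundant in f/wt and low in 7 of 8 Δm/wt embryos, whereas Hdac2 was not shown to change. Hdac1 was at 117, 204 and 260 CPM in the lowest, median and highest f/wt embryo and at 1.02, 8.68 and 120 CPM in Δm/wt. Of the 8 Δm/wt embryos 7, at no more than 17.8 CPM, lay below every f/wt embryo, and only Δm/wt 1 reached the f/wt range. The means were 203 ± 49.6 CPM (SD, n = 7) and 21.9 ± 40.1 CPM (SD, n = 8), a log2 fold change of −3.21 ± 0.76 (SE, edgeR adjusted p = 0.00210). Δm/wt 1 alone gave 776 of the 1220 Hdac1 counts of its group (63.6%), and without it the log2 fold change was −4.67 (adjusted p = 6.36e-06). Hdac1 was called lower under all 11 other settings and without each library in turn, from −4.71 to −2.29. In the same embryo Δm/wt 1, Kdm1a was also the highest of its group. The two-cell markers Tcstv1 (238 CPM), Tcstv3 (137 CPM), Zfp352 (440 CPM) and Usp17lb (6.81 CPM) were highest there too. Zscan4c, Zscan4d, Eif1a and Tdpoz4 were highest in other Δm/wt embryos.

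Hdac2 was at 18.9, 60.9 and 84.3 CPM in the lowest, median and highest f/wt embryo and at 1.05, 37.3 and 182 CPM in Δm/wt. The Δm/wt embryos reached both below and above the f/wt range, with 3 of them above its highest value and 2 below its lowest. The means were 48.8 ± 28.3 CPM (SD, n = 7) and 61.3 ± 60.4 CPM (SD, n = 8), with a log2 fold change of 0.33 ± 0.68 (SE, edgeR adjusted p = 0.711). The sign turned without Δm/wt 3, which held 47.3% of the Hdac2 counts of its group (−0.14, adjusted p = 0.881).

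A ratio of 2 genes within a library does not depend on how libraries are scaled, and 5 such ratios were compared, with p-values adjusted over the 5, of which 4 are given. The log2 ratio of Hdac2 to Hdac1 counts was −3.72, −2.08 and −0.47 in the lowest, median and highest f/wt embryo and −2.28, 2.59 and 4.75 in Δm/wt. Hdac1 had more counts than Hdac2 in all 7 f/wt samples, whereas Hdac2 had more in 6 of the 8 Δm/wt embryos, the exceptions being Δm/wt 1 and Δm/wt 8, where both held 5 counts. The mean ratio moved from −2.28 ± 1.23 (SD, n = 7) to 2.00 ± 2.44 (SD, n = 8), a difference of 4.27 (exact two-sided permutation test over 6435 assignments, p = 0.00280, adjusted p = 0.00971). The difference in embryos 4 to 8 alone was 4.25 (exact permutation test, adjusted p = 0.0397). The Kdm1b to Kdm1a ratio was above 0 in all 15 samples, with a mean of 4.05 ± 2.29 (SD, n = 7) for f/wt, against 6.98 ± 3.66 (SD, n = 8) for Δm/wt, and the difference of 2.93 did not pass (exact permutation test, adjusted p = 0.0903). Kdm1a held 0 counts in Δm/wt 8, so its ratio of 12.8 was set by the pseudocount of 0.5 and is no measured ratio. The ratios of Δm/wt 4 and Δm/wt 6, 10.4 and 9.37, rest on 1 Kdm1a count each. The difference of the means rests in part on these samples. That difference passed only when Δm/wt 1 was left out (exact permutation test, 3.61, adjusted p = 0.0488).

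**Figure D2:**
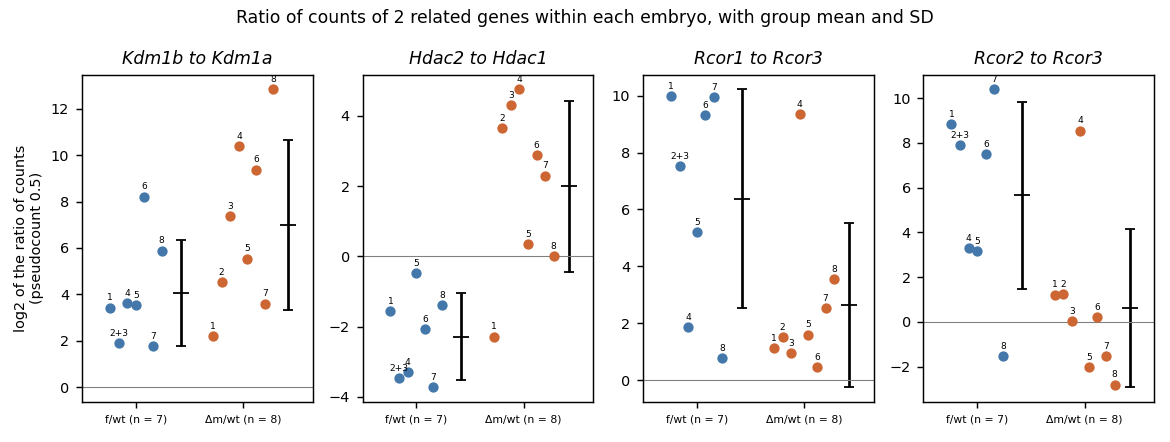
Log2 ratio of the counts of 2 related genes within each embryo (points, numbered by embryo), with the mean and SD of 7 f/wt and 8 Δm/wt samples. For Hdac2 to Hdac1 every f/wt sample lies below 0 and 6 of 8 Δm/wt samples lie above it, with Δm/wt 1 at −2.28.

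RCOR1, the founding CoREST protein, bridges LSD1 and the deacetylases, and RCOR2 and RCOR3 are its paralogs. Rcor1 was at 21.5, 39.0 and 71.6 CPM in the lowest, median and highest f/wt embryo and at 13.9, 19.0 and 41.7 CPM in Δm/wt. Of the 8 Δm/wt embryos 7 lay below the f/wt median, the exception being Δm/wt 4. The means were 44.0 ± 16.6 CPM (SD, n = 7) and 21.4 ± 9.14 CPM (SD, n = 8), with a log2 fold change of −1.04 ± 0.46 (SE, edgeR adjusted p = 0.0682). The value missed the threshold here but passed without Δm/wt 4 (−1.24, adjusted p = 0.0368), with DESeq2 (−1.08, adjusted p = 0.0162) and with library totals (−1.41, adjusted p = 0.0185), and fell to −0.35 when libraries were scaled to Hprt, Gapdh and Ppia.

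Rcor2 was at 9.19, 32.3 and 70.4 CPM in the lowest, median and highest f/wt embryo and at 0.209, 10.2 and 23.9 CPM in Δm/wt. The f/wt samples fell apart, with 4 between 32.3 and 70.4 CPM, above every Δm/wt embryo, and 3 between 9.19 and 11.1 CPM, within the Δm/wt range. The means were 33.3 ± 24.5 CPM (SD, n = 7) and 9.71 ± 8.49 CPM (SD, n = 8), with a log2 fold change of −1.78 ± 0.79 (SE, edgeR adjusted p = 0.0696). It passed without f/wt 8 (−2.11, adjusted p = 0.0420), without Δm/wt 4 (−2.11, adjusted p = 0.0436), with DESeq2 (−1.86, adjusted p = 0.0250), with limma-voom (−2.42, adjusted p = 0.0211) and with library totals (−2.21, adjusted p = 0.0331).

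Rcor3 was the rarest of the scaffolds. Its f/wt embryos were at 0, 0.138 and 31.7 CPM in the lowest, median and highest, and its Δm/wt embryos at 0, 6.40 and 11.3 CPM. In f/wt 4 of 7 samples held fewer than 3 counts and f/wt 8 alone gave 244 of 323 counts (75.5%), whereas 7 of 8 Δm/wt embryos held at least 10. The means, 5.51 ± 11.7 CPM (SD, n = 7) and 5.49 ± 3.55 CPM (SD, n = 8), gave a log2 fold change of −0.00 ± 1.33 (SE, edgeR adjusted p = 0.998), which rests on f/wt 8, without which the log2 fold change was 2.05 (adjusted p = 0.239). The start of Rcor3 overlaps the antisense gene Gm10516 over 1143 bases (chr1:192136898-192138040), where GENCODE M21 gives 336 shared exon bases. Near its 3′ end Rcor3 shares 667 exon bases with the antisense gene Gm26879 (chr1:192098962-192099628). Of its windows of read length, 631 of 3743 (16.9%) also occurred in these genes, and 84 of the 500 nearest the 3′ end. Without strand, reads of the shared stretches cannot be told apart. Gm10516 itself rose from 0.261 ± 0.231 CPM (SD, n = 7) to 6.17 ± 4.87 CPM (SD, n = 8), a log2 fold change of 4.47 (edgeR adjusted p = 0.00292). Whether reads of the shared stretches were counted for Rcor3, for the antisense gene or for neither was not tested.

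Within embryos the ratio of Rcor2 to Rcor3 was lower in Δm/wt, by a narrow margin. The log2 ratio of Rcor2 to Rcor3 was −1.53, 7.50 and 10.4 in the lowest, median and highest f/wt sample and −2.81, 0.13 and 8.55 in Δm/wt. Rcor3 held 0 counts in f/wt 1, 6 and 7 and in Δm/wt 4, so the ratios of these samples, among them the median and the highest of f/wt, were set by the pseudocount of 0.5 and are no measured ratios. The difference of the means, which rests in part on them, was −5.04 (exact permutation test, p = 0.0280, adjusted p = 0.0466), or −4.64 with a pseudocount of 1 (exact permutation test, adjusted p = 0.0401), from 5.65 ± 4.17 (SD, n = 7) to 0.61 ± 3.54 (SD, n = 8). This call was lost without f/wt 1, 5, 6 or 7 or without Δm/wt 2, 3, 5, 6, 7 or 8 (exact permutation tests, adjusted p = 0.0505 to 0.0988) and in embryos 4 to 8 alone (exact permutation test, −4.08, adjusted p = 0.238). The ratio of Rcor1 to Rcor3, with the same 0 counts, differed by −3.73 and did not pass (exact permutation test, adjusted p = 0.0653). It passed when f/wt 4 was left out (adjusted p = 0.0379), likewise f/wt 8 (adjusted p = 0.0254) or Δm/wt 4 (adjusted p = 0.0168, all exact permutation tests).

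Of the smaller subunits, PHF21A reads the unmethylated tail of histone H3 and HMG20B is a DNA-bending HMG-box protein. Phf21a was at 8.57, 21.03 and 46.3 CPM in the lowest, median and highest f/wt embryo and at 8.30, 14.5 and 29.6 CPM in Δm/wt. The ranges overlapped almost fully. The means were 23.5 ± 12.2 CPM (SD, n = 7) and 16.9 ± 8.14 CPM (SD, n = 8), with a log2 fold change of −0.48 ± 0.54 (SE, edgeR adjusted p = 0.486). Hmg20b was barely detected, with 69 counts in all f/wt libraries and 9 in all Δm/wt libraries, and was not tested for lack of counts. The summed sample f/wt 2+3 gave 61 of the 69 counts (88.4%), at 4.21 CPM, and no other sample exceeded 0.567 CPM.

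Levels of different genes were compared as CPM per kilobase of the longest annotated coding transcript. In f/wt Hdac1 was highest at 99.6 ± 24.3 CPM per kb (SD, n = 7), followed by Kdm1b at 40.5 ± 36.0, Hdac2 at 15.03 ± 8.72, Rcor2 at 11.8 ± 8.69, Rcor1 at 7.74 ± 2.92, Phf21a at 3.72 ± 1.92, Kdm1a at 3.30 ± 1.98, Rcor3 at 1.45 ± 3.10 and Hmg20b at 0.456 ± 0.953. Kdm1a was thus among the rarer transcripts of its own complex, and no 2 neighbours in this order were more than their SDs apart. In Δm/wt the order was Kdm1b at 38.5 ± 49.3 CPM per kb (SD, n = 8), Hdac2 at 18.9 ± 18.6, Hdac1 at 10.8 ± 19.7, Rcor1 at 3.77 ± 1.61, Rcor2 at 3.44 ± 3.01, Phf21a at 2.66 ± 1.29, Rcor3 at 1.45 ± 0.936, Kdm1a at 0.411 ± 0.484 and Hmg20b at 0.0961 ± 0.0779. Again no neighbours were more than their SDs apart. Hdac1 moved from the first place to the third, with Hdac2 above it in 5 of 8 embryos. Because reads lie within about 3 kb of the 3′ end, lengths were also capped at 3 kb, which put Rcor1 at 14.7 CPM per kb above Rcor2 at 11.8 in f/wt. In Δm/wt the cap put Phf21a, at 5.62 CPM per kb, above Rcor2 at 3.44.

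Between embryos of 1 group the members did not move together in a way that passed correction. Of 56 relations (28 pairs of genes in each group, log2 CPM), 9 had an exact permutation p under 0.05 and none passed after adjustment (lowest adjusted p = 0.240 for Pearson's r and 0.333 for Spearman's rho, exact permutation tests). The relation of largest r was that of Rcor1 and Rcor3 in Δm/wt (r = −0.89, exact permutation p = 0.00789, rho = −0.55, exact permutation p = 0.171, n = 8), which was −0.69 without the 2 samples farthest from the median of Rcor1.

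The wider circle of the complex was described through 21 partner genes, listed with earlier results of these data known. Of these 15 were tested, 4 were higher in Δm/wt (26.7%), 6 lower (40.0%) and 5 not called, where 21.9% of all genes were called higher and 22.8% lower, with a median log2 fold change of −0.79 against 0.04 over all genes. The groups did not overlap for 3 of the higher genes (Gse1, Ctbp2 and Nr2e1) and 2 of the lower genes (Zfp217 and Glyr1), where the share over all genes was 7.18% higher and 9.04% lower.

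Among proteins found in LSD1 complexes, partners went both ways. Gse1 was at 1.37, 9.91 and 19.5 CPM in the lowest, median and highest f/wt embryo and at 21.4, 49.4 and 93.3 CPM in Δm/wt, a log2 fold change of 2.25 ± 0.59 (SE, edgeR adjusted p = 0.00412). By the positions listed with the counts, its end overlaps that of Gins2 on the other strand over 118 bases (chr8:120581266-120581383). By GENCODE M21 the 2 genes share 2758 exon bases there (chr8:120578633-120581390), a stretch that these libraries favor. Reads of shared bases cannot be told apart without strand, and how they were counted was not tested. Ctbp2, a corepressor that joins LSD1 and CoREST at target genes, was at 1.24, 20.3 and 35.1 CPM in f/wt, against 43.9, 81.5 and 171 CPM in Δm/wt, a log2 fold change of 2.32 ± 0.56 (SE, edgeR adjusted p = 0.00224). Both lost the call in embryos 4 to 8 alone (adjusted p = 0.0525 for Gse1 and 0.0813 for Ctbp2).

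Zfp217, a zinc finger protein of CoREST and CtBP complexes, fell from 92.0, 129 and 206 CPM in the lowest, median and highest f/wt embryo to 6.40, 18.6 and 33.8 CPM in Δm/wt. Its log2 fold change was −2.92 ± 0.44 (SE, edgeR adjusted p = 3.27e-05). Zmym2, a zinc finger protein that binds the LSD1 complex, was at 37.0, 100 and 156 CPM in f/wt, against 0.836, 25.6 and 44.3 CPM in Δm/wt (log2 fold change −2.13 ± 0.60, SE, edgeR adjusted p = 0.00679), a call that was lost when Hprt, Gapdh and Ppia set the scale (−1.48, adjusted p = 0.0683). Its relative Zmym3 did not pass (−0.90 ± 0.79, SE, edgeR adjusted p = 0.363).

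Glyr1, whose product is the cofactor through which LSD2 acts on nucleosomes, fell while Kdm1b did not pass the test. Glyr1 was at 71.9, 120 and 175 CPM in the lowest, median and highest f/wt embryo and at 11.4, 28.0 and 57.0 CPM in Δm/wt, a log2 fold change of −2.06 ± 0.41 (SE, edgeR adjusted p = 5.03e-04). It was called lower under all 11 other settings and without each library in turn.

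The histone H3 lysine 9 methyltransferase genes Ehmt1 and Ehmt2 were both called lower, with calls that were lost under some settings. Ehmt1 averaged 56.3 ± 22.7 CPM (SD, n = 7) in f/wt, against 15.5 ± 11.9 CPM (SD, n = 8) in Δm/wt, a log2 fold change of −1.86 ± 0.62 (SE, edgeR adjusted p = 0.0192). Its call was lost when Hprt, Gapdh and Ppia set the scale (−1.44, adjusted p = 0.0747) and in embryos 4 to 8 alone (−2.27, adjusted p = 0.0601). Ehmt2 was at 0.108, 3.78 and 26.1 CPM in the lowest, median and highest f/wt embryo and at 0, 0.252 and 2.92 CPM in Δm/wt, with only 4 of 7 f/wt samples above every Δm/wt embryo. Its log2 fold change was −3.44 ± 1.23 (SE, edgeR adjusted p = 0.0283). The call was lost without f/wt 1 (−3.08, adjusted p = 0.0587) and with limma-voom (−2.65, adjusted p = 0.0792). Of the 595 Ehmt2 counts in f/wt, f/wt 2+3 gave 378 and f/wt 1 gave 124. Counts were 47 in f/wt 4 and 36 in f/wt 7, but only 1, 7 and 2 in f/wt 5, 6 and 8. Ehmt2 had a value under only 8 other settings, of which 6 kept the call, whereas Ehmt1 had one under 11.

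Of the DNA-binding factors that recruit the complex, Snai1, a repressor known from epithelial to mesenchymal transition, was at 17.9, 88.1 and 176 CPM in the lowest, median and highest f/wt embryo and at 2.14, 8.04 and 21.1 CPM in Δm/wt. Its log2 fold change was −3.41 ± 0.56 (SE, edgeR adjusted p = 8.13e-05). Nr2e1, an orphan nuclear receptor known from neural stem cells, went the other way, from 0.0690, 4.39 and 12.1 CPM to 47.9, 93.9 and 301 CPM, a log2 fold change of 4.20 ± 0.70 (SE, edgeR adjusted p = 8.96e-05). Rreb1 (0.10 ± 0.42), Rest (−0.79 ± 0.49) and Insm1 (−0.18 ± 1.05) did not pass (log2 fold change ± SE, edgeR adjusted p = 0.863, 0.191 and 0.901). The plot of fold changes sets the 2 lower members beside these partners.

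**Figure D3:**
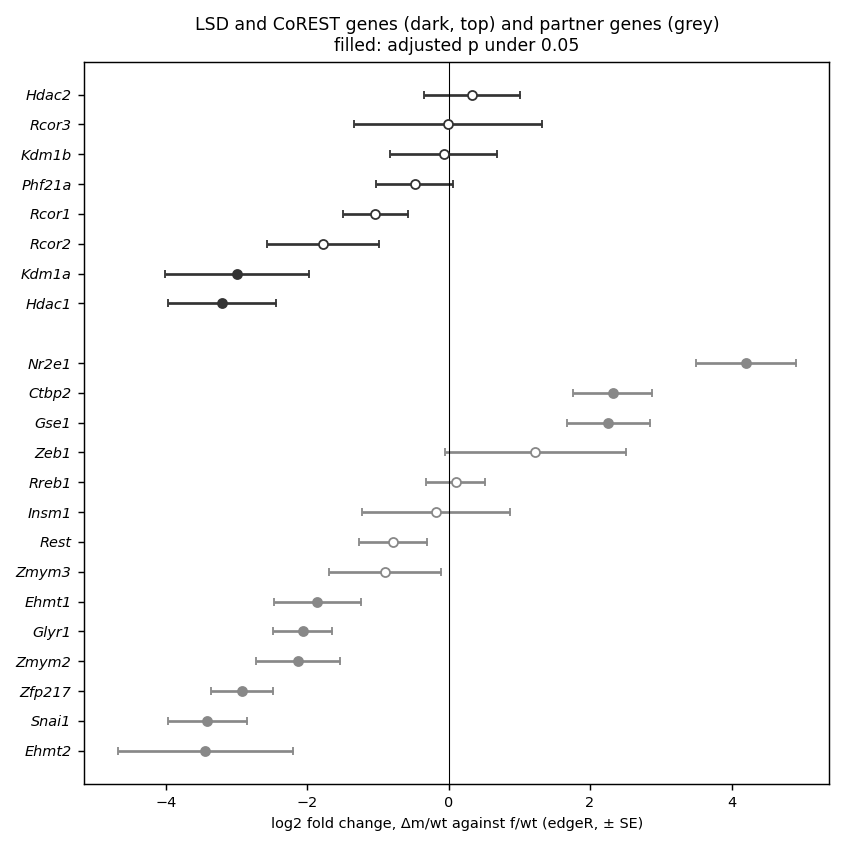
Log2 fold change of Δm/wt against f/wt (edgeR, bars ± SE, 7 against 8 samples) of the 8 tested members (dark, top) and 14 of the 15 tested partner genes (grey), filled where adjusted p was under 0.05. Hdac1 at −3.21 and Kdm1a at −2.99 are the filled members, and partners are filled on both sides of 0.

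How far the members' values held can be read from the plot of other settings. Kdm1a and Hdac1 stayed negative throughout, Rcor1 and Rcor2 stayed negative with changing calls, and Kdm1b, Rcor3, Hdac2 and Phf21a changed sign.

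**Figure D4:**
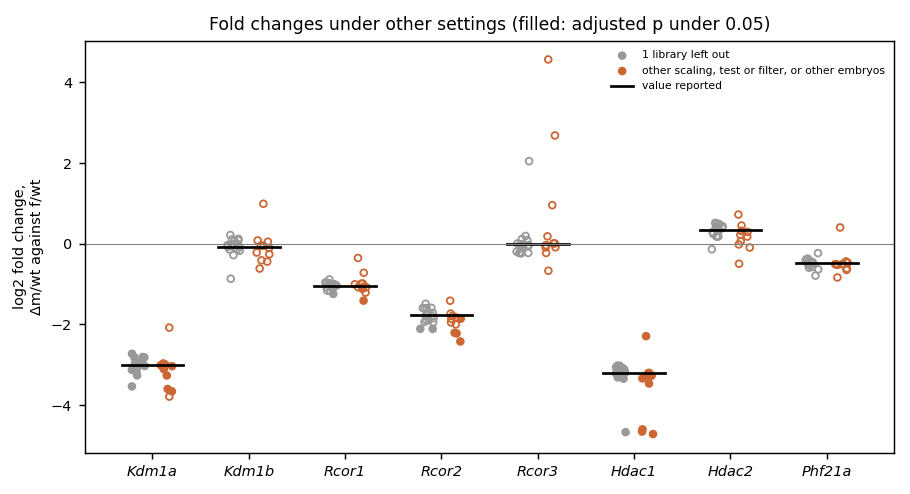
Log2 fold change of each tested member with 1 library left out (grey, 16 values) and under 11 other settings (orange), filled where adjusted p was under 0.05, with the reported value as a line. All Hdac1 values are filled and lie between −4.71 and −2.29, while Rcor3 runs from −0.67 to 4.57.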

How the data were processed

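RNA of 16 single two-cell embryos was amplified by the authors by oligo-dT priming for single cells, which favors the last 3 kb of transcripts, and sequenced as single 49-base reads. Per the study's methods the reads were aligned to mm10 with TopHat2 (2.0.6), kept where the best alignment was unique with fewer than 2 mismatches, and assigned to RefSeq genes by HTSeq (0.6.1). All results rest on the raw gene counts that the authors deposited. The strand setting and annotation release are not given in the sources used here, and reads carried no molecular identifiers, so limits from counts cover counting error only.

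Genes without counts were dropped, which left 18907 of 24063, and the 60% of these with the highest sums were kept (11344), as in the study. Counts were tested with edgeR (4.0.16, R 4.3.3) by quasi-likelihood after TMM scaling, two-sided, with Benjamini-Hochberg adjustment over all genes and a threshold of 0.05. Procedures were tested on simulated data. CPM are after TMM scaling. Ratios within libraries used a pseudocount of 0.5 and exact permutation tests (Python 3.11.15). DESeq2 (1.42.0) and limma (3.58.1) served as alternatives, with other scalings, filters, subsets and each library left out. Sequences, exons, lengths and shared exon bases came from GENCODE M21, and other overlaps from the positions in the tables. Named were all members, up to 5 called partners per direction by fold change and up to 4 uncalled by level, and the 3 genes most like Kdm1a and Kdm1b. Ehmt1, outside that rule, was described after its values were seen, and 1 partner gene that entered the counts and 1 ratio are not reported here. The members, partner list and marker lists were chosen with earlier results of these data known. The repeat counts and the authors' own comparisons were not used.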

Additional observations from a re-analysis of the deposited data

Results flagged for a closer look

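In 26 sets of values of 1 group (9 members and 4 ratios in each group), 1 sample stood apart from the rest of its group in 7, by the gap to its nearest neighbor as a share of the group's range. Chance alone gives about 1 in 20 for independent values of normal distribution. These sets share genes and samples and some are skewed, so the share that chance gives here is not known. Δm/wt 8 had 760 CPM of Kdm1b, against 259 in the next highest embryo. Δm/wt 4 had 41.7 CPM of Rcor1, against 25.7, and the highest log2 ratios of its group of Rcor1 to Rcor3 (9.35, against 3.56) and of Rcor2 to Rcor3 (8.55, against 1.24). That embryo held no Rcor3 count. f/wt 8 had 31.7 CPM of Rcor3, against 5.80. Δm/wt 1 had 120 CPM of Hdac1, against 17.8, the only value of its group within the range of f/wt. The summed sample f/wt 2+3 had 4.21 CPM of Hmg20b, against 0.567.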

How the results depend on the processing

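Kdm1a and Hdac1 kept their direction under all settings run. Over all genes the median log2 fold change, 0.04 here, was −0.32 by library totals and 0.75 by the reference genes Hprt, Gapdh and Ppia, and members' values are to be read against it. Members called lower numbered 4 with library totals, 4 with DESeq2 and 1 by scaling to Hprt, Gapdh and Ppia. Of all 11344 genes these settings called 3116, 3037 and 1594 lower. In embryos 4 to 8, with fewer samples, 1 member was called lower and 2 partners higher, where 1465 of 10855 genes were called higher and 1675 lower. Leaving out each library gave 2 to 4 members lower (4 without Δm/wt 4), 0 higher, 4 partners higher and 5 to 6 lower. Over all genes, 2356 to 2712 were then called lower and 2153 to 2512 higher. Signs of uncalled members turned. Kdm1b was 0.99 by scaling to Hprt, Gapdh and Ppia, 0.082 with f/wt 2 and 3 apart, 0.052 in embryos 4 to 8, and −0.87 to 0.22 with 1 library left out. Rcor3 was 0.0088 with DESeq2 size factors, 0.0083 with DESeq2, 2.68 with limma-voom, 0.96 by scaling to Hprt, Gapdh and Ppia, 0.18 with f/wt 2 and 3 apart, and −0.23 to 2.05 with 1 library left out. Hdac2 was −0.017 with library totals, −0.093 with limma-voom, −0.50 in embryos 4 to 8 and −0.14 to 0.52 with 1 library left out. Phf21a was 0.40 by scaling to Hprt, Gapdh and Ppia. The cause was not tested. The ratio of Rcor1 to Rcor3 passed with f/wt 2 and 3 apart (−3.89). In embryos 4 to 8 the ratio of Rcor2 to Rcor3 (−4.08) did not pass. With 1 library left out the ratio of Kdm1b to Kdm1a differed by 2.09 to 3.62, of Rcor1 to Rcor3 by −4.69 to −3.13 and of Rcor2 to Rcor3 by −6.24 to −4.25. Leaving out both f/wt 2 and f/wt 3, added after the data were seen, gave 2 members lower and 0 higher.

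Embryos of the same number in the 2 groups showed little likeness. Their deviations from the group means correlated at −0.073 to 0.14 (1 of 8 over 0.1), and 2 of 8 embryos correlated best with their own number. This compared 1 number at a time, with f/wt 2 and 3 apart, and cannot tell whether several numbers share a source. A fit with the number as a replicate block called 2592 genes higher and 2805 lower, 3 members lower (Rcor2 at −2.22 in addition) and 0 higher, 4 partners higher and 5 lower (Ehmt2 lost, adjusted p = 0.0983), with Rcor3 at 4.57. Rcor3 and Hmg20b had 323 and 69 counts in all of f/wt, mostly from 1 sample each.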
